A study of Mus musculus with 36 samples.

Results

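Cell cycle and DNA replication genes were followed as a module of 46 named genes, listed by function, among the 52636 gene identifiers counted in each library. The members cover licensing and unwinding of replication origins (Cdc6, Cdt1, Mcm2 to Mcm7, Cdc45, Gins1 and Gins2), nucleotide supply (Rrm1, Rrm2, Tyms and Tk1), the DNA clamp and maintenance methylation (Pcna and Uhrf1), entry into S phase (Ccne1, Ccne2, Cdk2, E2f1 and E2f8), and mitosis (24 genes, among them Ccna2, Ccnb1, Cdk1, Foxm1, Plk1, Aurka, Bub1, Cenpa, Kif11, Mki67 and Top2a). RNA was sequenced from whole intestines of E18.5 mouse embryos and from mouse embryonic fibroblasts (MEFs), which are primary fibroblasts grown from embryos without head and inner organs. The mutants were of caspase-8 that cannot process itself (D387A), studied with and without cFLIP, the caspase-8 partner encoded by Cflar, to learn what pairs of caspase-8 and cFLIP do in cell death and inflammation, and of caspase-8 with no catalytic activity (C362A) for comparison. MLKL is the executioner of necroptosis. There were 36 libraries in 12 groups of 3, and all 46 members passed the filter on low counts in each of the 3 sets.

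In the D387A set of intestines the controls were Mlkl KO embryos, and the other groups carried Casp8 D387A KI alone with intact Mlkl (D387A), the knock-in with Cflar KO and Mlkl KO (D387A Cflar Mlkl), that genotype with Casp1 KO added (D387A Cflar Mlkl Casp1), and that quadruple mutant with either Ifnar1 KO or Fadd KO. Casp1 encodes the inflammatory caspase-1, Ifnar1 a chain of the type I interferon receptor, and Fadd the adaptor that brings caspase-8 to death receptors. In the C362A set the controls were separate Mlkl KO embryos, and the other groups were Casp8 C362A KI with Mlkl KO (C362A Mlkl), the same with Casp1 KO (C362A Mlkl Casp1), and Casp8 C362A KI with Cflar KO and Mlkl KO (C362A Cflar Mlkl). The MEFs were Mlkl KO or D387A Cflar Mlkl. The mutations were germline, on a C57BL/6N background, so every cell of the intestine carried them. Per the study, transcript levels of E18.5 intestines were plotted by embryo, but the labels do not tie each library to an embryo and do not say whether MEF libraries came from separate cultures. The p-values therefore measure the spread between these libraries.

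Proliferating cells pass through G1, S, G2 and M phase. Cyclin E with CDK2 starts S phase, E2F transcription factors switch on the genes of replication, and the MCM helicase, loaded by CDC6 and CDT1 and activated with CDC45 and GINS, opens the DNA. Cyclin A, cyclin B and CDK1 then drive mitosis, with FOXM1 and the MuvB complex raising transcription of the mitotic genes. In the late fetal gut proliferation is concentrated in the intervillus epithelium and its stem cells, while the absorptive enterocytes of the villi have left the cycle. E2F8, an atypical E2F, represses E2F targets late in S phase.

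Promoter sequences of the members were searched for motifs known from cell cycle genes. RefSeq promoters (GRCm38.p6, 250 bases before to 50 after the start) were matched for 37 of the 46 members, not for Mcm4, Gins1, Gins2, Ccne2, Ccna2, Foxm1, Aurkb, Kif20a and Tpx2. Both strands were searched for an E2F motif (TTTCCCGC, TTTCGCGC, TTTGCCGC or TTTGGCGC), a cell cycle homology region or CHR (TTTGAA or TTCGAA), and the CCAAT box. The E2F motif was in 7 of 18 (38.9%) replication promoters and 1 of 19 (5.26%) mitosis promoters, against 2.32% of all 27025 promoters. The CHR was in 4 of 18 (22.2%) replication promoters and 15 of 19 (78.9%) mitosis promoters, against 19.4% of all. The CCAAT box was in 12 of 18 (66.7%) and 17 of 19 (89.5%), against 37.9%. These are matches of letters and not sites shown to be bound. The 160 bases before the start are given for 6 members that the results below turn on, with matched motifs in capitals on the strand of the gene. Mcm5 and Mcm6 show the E2F motif and CCAAT boxes, and Cdk1 shows E2F, CHR and CCAAT together. Ccnb2 shows 3 CCAAT boxes, and its 2 CHR matches in the searched promoter lie outside the printed bases. Rrm2, with 1 CCAAT box, was the member with the largest rise in the D387A Cflar Mlkl intestines. E2f8, with 1 CHR and 1 CCAAT match, was the member that fell.
Mcm5, chr8:75109349-75109508, plus strand: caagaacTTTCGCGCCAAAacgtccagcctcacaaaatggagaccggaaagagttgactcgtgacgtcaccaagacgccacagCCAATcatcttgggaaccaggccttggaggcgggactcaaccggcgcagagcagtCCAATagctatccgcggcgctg
Mcm6, chr1:128359706-128359865, minus strand: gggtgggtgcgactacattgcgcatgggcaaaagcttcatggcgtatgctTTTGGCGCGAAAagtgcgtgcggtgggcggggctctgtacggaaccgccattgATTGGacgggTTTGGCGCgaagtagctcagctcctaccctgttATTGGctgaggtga
Cdk1, chr10:69352913-69353072, minus strand: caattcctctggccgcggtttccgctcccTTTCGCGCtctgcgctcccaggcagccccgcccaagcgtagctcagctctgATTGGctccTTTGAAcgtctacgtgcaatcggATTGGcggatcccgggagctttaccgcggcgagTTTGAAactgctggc
Ccnb2, chr9:70421555-70421714, minus strand: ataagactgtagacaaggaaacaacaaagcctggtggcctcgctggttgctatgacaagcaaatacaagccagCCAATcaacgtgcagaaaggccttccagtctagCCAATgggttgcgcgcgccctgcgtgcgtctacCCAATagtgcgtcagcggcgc
Rrm2, chr12:24708094-24708253, plus strand: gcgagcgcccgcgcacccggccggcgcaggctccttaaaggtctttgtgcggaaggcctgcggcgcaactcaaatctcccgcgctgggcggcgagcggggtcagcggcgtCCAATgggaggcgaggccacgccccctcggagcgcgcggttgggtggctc
E2f8, chr7:48881597-48881756, minus strand: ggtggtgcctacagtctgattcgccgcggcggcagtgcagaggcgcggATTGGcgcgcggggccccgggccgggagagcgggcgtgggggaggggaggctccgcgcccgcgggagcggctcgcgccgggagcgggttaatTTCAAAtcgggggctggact

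Reads on genes ran from 17943524 to 27721024 per library in the D387A set, from 21757868 to 31052238 in the C362A set and from 20927014 to 32307629 in MEFs. Levels below are RPKM, reads scaled to gene width and library depth, with libraries scaled by TMM within each set, so they can be compared between genes but not strictly between sets. Casp1 reads were at most 0.212 CPM (counts scaled to library size) in the 12 Casp1 KO intestine libraries, Fadd reads were 0.659 to 1.01 CPM in the Fadd KO libraries against 25.5 to 50.5 in the other intestines, and Ifnar1 reads were 33.2 to 37.9 against 76.1 to 103. Cflar (33.8 to 59.4 CPM in KO, 43.9 to 72.5 in other intestines) and Mlkl overlapped between genotypes, so the gene totals did not check those 2 labels. Library 3 of D387A Cflar Mlkl Casp1 stood apart from its group, with 46.1 CPM of Mlkl against 6.27 and 7.46 in libraries 1 and 2. Mlkl reads were 10.9 to 13.9 CPM in the D387A intestines with intact Mlkl and 4.78 to 5.35 in that set's Mlkl controls. They were 45.8 to 55.9 CPM in the Ifnar1 KO version and 55.4 to 62.6 in the Fadd KO version. Intestines labelled Mlkl KO ran from 2.13 to 62.6 CPM in all, so high Mlkl reads did not mark intact Mlkl. The Mlkl genotype of library 3, or of libraries 1 and 2, is in doubt and could not be checked. Without library 3 the members called were 44 for Casp1 loss (44 with it) and 18 for Ifnar1 loss (15 with it). They were 11 for Fadd loss (13 with it) and 16 for the difference between the Casp1 effects (18 with it). Each comparison is described below. The lowest count of any member in any library was 85 reads (Ccnb1). By the number that opens the sample titles, the Mlkl controls and the D387A Cflar Mlkl intestines belonged together while each other genotype of the D387A set had a number of its own, so for those genotypes the title number and the genotype cannot be told apart. In bulk tissue, more cells in cycle and more RNA of these genes per cell cannot be told apart either.

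The level of the module was compared between genotypes in the intestines and in MEFs. Each library was summarised as the median over the 46 members of the level relative to the mean of the Mlkl controls of its set. The controls gave 1.00 ± 0.05 (SD, n = 3 in every group), D387A 0.99 ± 0.01, D387A Cflar Mlkl 1.93 ± 0.10, D387A Cflar Mlkl Casp1 1.23 ± 0.03, the Ifnar1 KO version 1.37 ± 0.10 and the Fadd KO version 1.07 ± 0.04. In the C362A set the controls gave 1.00 ± 0.17, C362A Mlkl 1.55 ± 0.04, C362A Mlkl Casp1 1.23 ± 0.05 and C362A Cflar Mlkl 1.90 ± 0.10. MEFs gave 1.00 ± 0.05 for Mlkl KO and 1.06 ± 0.02 for D387A Cflar Mlkl, with overlapping libraries. The 3 C362A-set controls were the most spread of any group, from 0.834 to 1.18. Their libraries 1 to 3 gave 1.18, 0.995 and 0.834, with 83.9, 82.2 and 78.2% of reads on genes, by the library totals behind the deposited RPKM. That share ran from 75.6 to 83.9% in the C362A set and from 84.2 to 88.0% in the D387A set. Its part in the results was not tested.

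**Figure D1:**
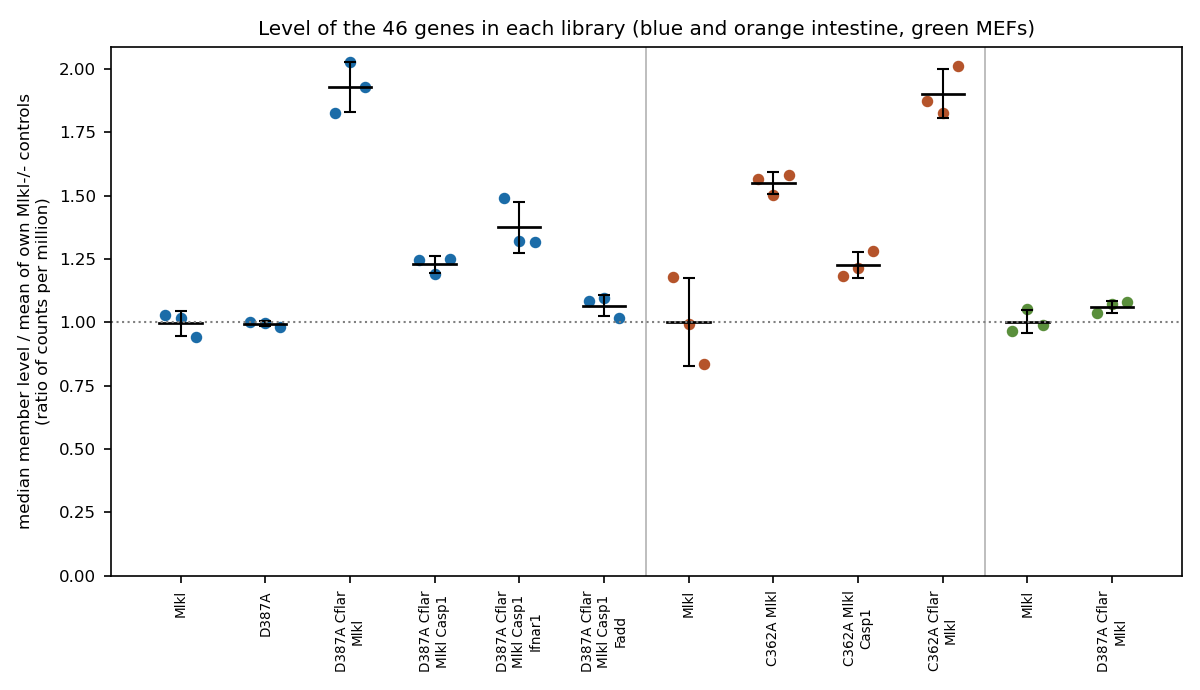
The level of the 46 members in each library (y axis, ratio of CPM to the mean of the set's own Mlkl controls, median over members) by genotype (x axis). Points are libraries and bars the mean and SD of 3, vertical lines part the D387A set, the C362A set and MEFs, and the D387A Cflar Mlkl libraries lie from 1.83 to 2.03, above every other library of that set.

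The first comparison asked what D387A together with loss of cFLIP did on the Mlkl KO background. Against Mlkl controls, 44 of the 46 members rose and 1, E2f8, fell at an adjusted p under 0.05, where 29.9% of all 18360 genes tested rose and 29.5% fell. The median member change was 0.94 on the log2 scale, against -0.01 for all genes. Of the 22 replication members 20 rose (median 0.93, from -0.70 for E2f8 to 1.63 for Rrm2), and all 24 mitosis members rose (median 0.94, from 0.58 for Cenpf to 1.37 for Hmmr). All 44 members that rose had their lowest mutant library above the highest control, which held for 34.3% of all genes, and 17 of them were also more than 1 higher on the log2 scale (background 9.4%). Changes are given as log2 fold changes ± SE from edgeR (quasi-likelihood), with p-values adjusted by Benjamini-Hochberg over all genes tested.

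Among the licensing and helicase genes all 11 rose, by 0.95 in the median. Mcm5, a subunit of the helicase ring, was 23.6, 22.3 and 20.6 RPKM in the controls and 45.4, 53.8 and 47.8 in the D387A Cflar Mlkl libraries. Every mutant library was therefore well above the controls, with a log2 fold change of 1.15 ± 0.08 (adjusted p = 2.9e-09). Cdc45, which joins the loaded helicase when an origin fires, changed by 1.19 ± 0.09 (adjusted p = 5.1e-09) and Mcm3 by 1.12 ± 0.08 (adjusted p = 5.0e-09). Mcm6 moved least of the helicase ring, from 33.9, 34.5 and 32.0 RPKM to 44.4, 51.2 and 45.0. Its groups were still apart, and its change of 0.49 ± 0.08 passed the test (adjusted p = 3.1e-05). The loaders Cdc6 and Cdt1 rose by 0.91 and 0.86. Gins2 rose by 0.78, but 67.3% of its exonic bases lie under Gse1 on the other strand and the strand setting of the counting is not given, so its reads are uncertain. Smaller shares of exonic bases lie under another gene for Kif20a (29.3%), Ube2c (22.8%), Ccne2 (17.4%), Mcm7 and Ccna2 (up to 12.6%) and E2f8 (11.2%).

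The genes that supply nucleotides held the member with the largest rise. Rrm2 (chr12:24708241-24714146, plus strand) encodes the regulated subunit of ribonucleotide reductase, which makes deoxynucleotides. It was 19.0, 18.1 and 17.2 RPKM in the controls and 52.7, 62.2 and 53.3 in the mutant intestines. No mutant library came near the highest control, and the log2 fold change was 1.63 ± 0.11 (adjusted p = 1.0e-09). Its partner Rrm1 rose by 1.22 ± 0.07 (adjusted p = 2.6e-10). Tk1, the thymidine salvage kinase, and Tyms, the thymidylate synthase, rose by 0.85 and 0.75. Uhrf1, which brings maintenance methylation to new DNA, rose by 1.18 ± 0.09, and Pcna, the sliding clamp of the polymerases, by 0.64 ± 0.12. Tyms, Pcna, Ccnb1 and Ccnb2 have annotated pseudogenes that can share reads with them, so their values are uncertain to that degree.

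Ccne1, Ccne2 and Cdk2, which act at entry into S phase, all rose. Ccne1, encoding cyclin E1, was 9.20, 8.06 and 9.48 RPKM in the controls and 22.2, 19.1 and 22.1 in D387A Cflar Mlkl, a change of 1.25 ± 0.15 (adjusted p = 1.5e-06). Ccne2 rose by 1.03 ± 0.15 and Cdk2, the kinase they activate, by 0.68 ± 0.07. The E2F factors did not follow the other members. E2f1, an activating E2F, was 10.9, 9.99 and 8.63 RPKM in the controls and 9.19, 10.8 and 9.47 in the mutant, with overlapping groups and a change of -0.00 ± 0.09 (adjusted p = 0.990). E2f8 (chr7:48866429-48881596, minus strand) was 20.8, 19.8 and 20.1 RPKM in the controls and 12.6, 13.2 and 11.5 in the mutant. Each mutant library lay below each control, and E2f8 fell with a log2 fold change of -0.70 ± 0.11 (adjusted p = 3.4e-05).

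All 24 mitotic members rose. In the group of mitotic cyclins, CDK1 and FOXM1, the median was 0.92. Cdk1, the mitotic kinase, went from 17.9, 18.02 and 16.3 RPKM to 33.9, 38.1 and 37.6, so that every mutant library was above every control (log2 fold change 1.07 ± 0.08, adjusted p = 6.0e-09). Foxm1 had the smallest change of that group, 0.62 ± 0.09 (adjusted p = 2.2e-05). The mitotic kinases Plk1 and Aurka changed by 1.23 and 1.23, and Aurkb and its partner Birc5 (survivin) by 0.94 and 1.00. The checkpoint kinase Bub1 rose by 1.28 ± 0.10 (adjusted p = 9.8e-09), and Cdc20, an activator of the anaphase-promoting complex, by 0.96. Among the spindle genes Hmmr changed by 1.37 ± 0.09 and the central spindle motor Kif23 by 1.29 ± 0.10. Cenpf, a kinetochore protein, had the smallest rise of the mitotic members at 0.58 ± 0.11 (adjusted p = 2.4e-04).

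Mki67 and Top2a are used as markers of cycling cells. Mki67 was 21.3, 21.9 and 19.3 RPKM in the controls and 37.9, 45.0 and 35.0 in D387A Cflar Mlkl (log2 fold change 0.91 ± 0.15, adjusted p = 3.6e-05), and Top2a, which untangles sister chromatids, changed by 1.25 ± 0.10. Both sets of values were apart between the groups.

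**Figure D2:**
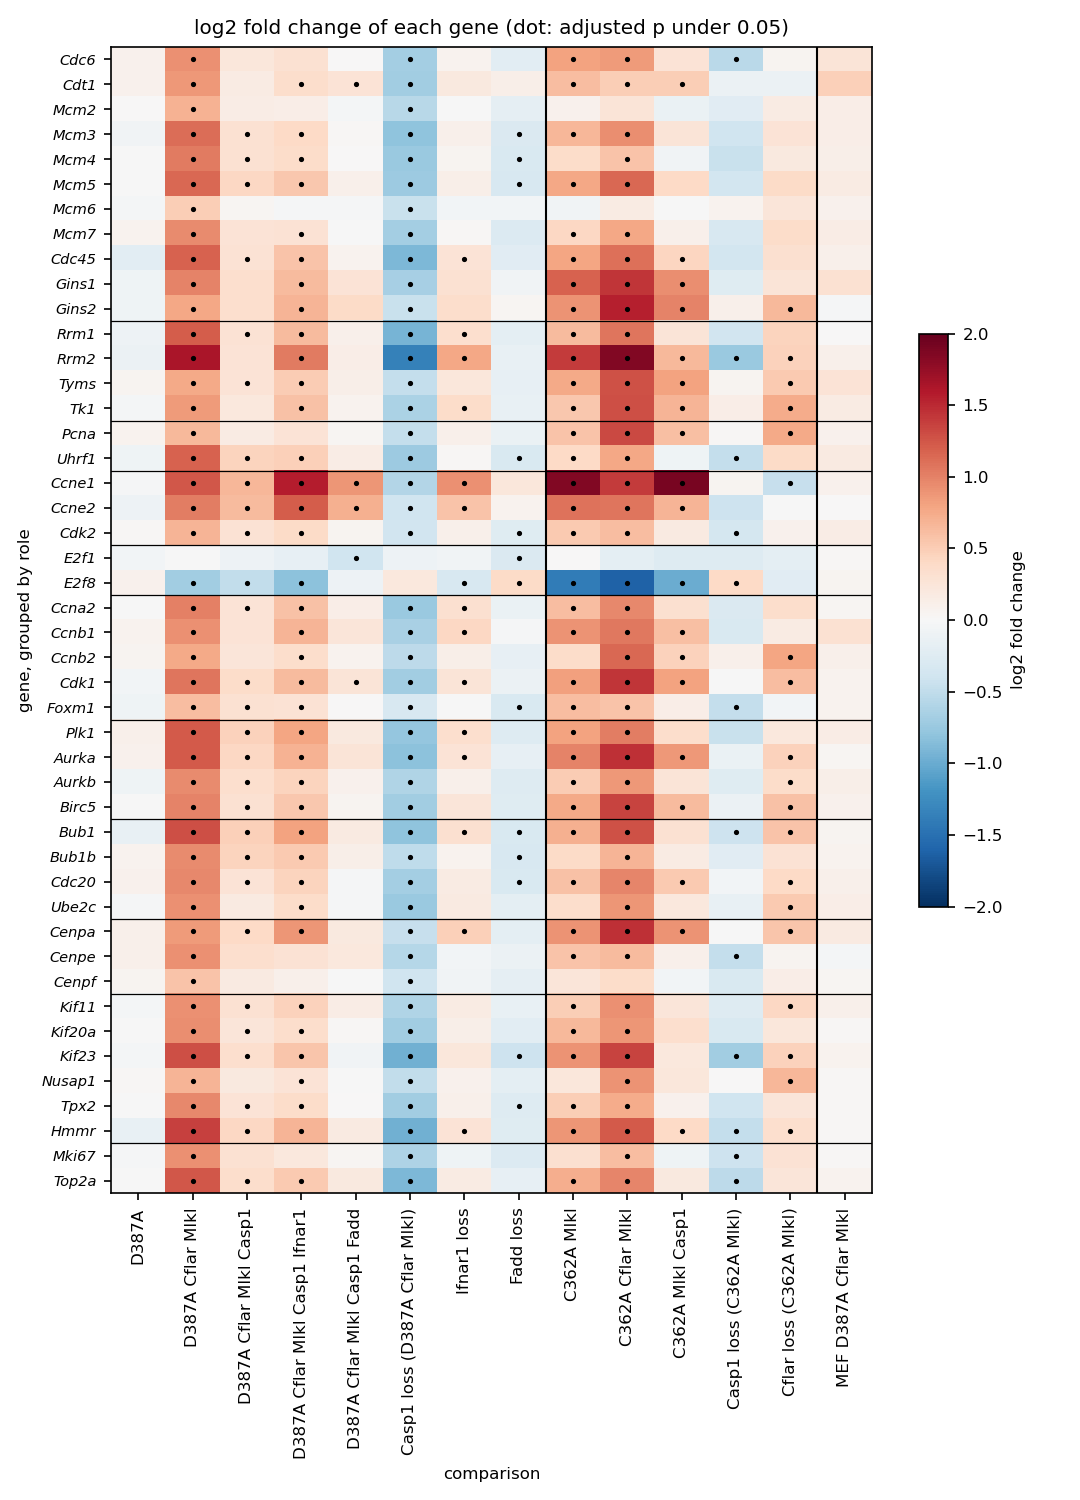
The log2 fold change of each member (rows, by role) in each comparison (columns), from blue for lower to red for higher, with a dot where the adjusted p was under 0.05. The D387A Cflar Mlkl column is red for 44 members and blue for E2f8, and the D387A and MEF columns have no dots.

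Markers of some gut cell types moved in the same libraries. Lists for epithelium, smooth muscle, fibroblasts, neurons and glia, endothelium, and T and NK cells were also drawn up and are not described here. Of 9 enterocyte markers 8 fell, with a summed level of 46630 to 53665 CPM in the controls and 2401 to 4649 in D387A Cflar Mlkl. Of 9 intestinal stem cell markers 8 rose, with sums of 287 to 295 CPM in the controls and 622 to 769 in the mutant. Of the neutrophil markers tested 4 of 5 rose (2.37 to 15.8 CPM in the controls, 32.6 to 120.4 in the mutant), and 6 of 7 macrophage markers rose while 1 fell. Of 8 erythroid markers 0 passed edgeR's test, and 0 had an unadjusted p under 0.05. The stem cell list includes genes that other dividing cells also use, such as Sox9 and Cd44. The part of these cell types in the change of the members was not tested.

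No member passed the test for D387A alone against the Mlkl controls. By edgeR, 0 members rose and 0 fell, with 1 at an unadjusted p under 0.05 (background 5.02%), and limma-voom and DESeq2 also called 0. Of all 18360 genes 0.00545% was called. The median member change was -0.01 against 0.02 for all genes. Rrm2 was 16.0, 17.995 and 16.1 RPKM and E2f8 22.7, 20.1 and 21.5, beside the control values given above. For both genes the range overlapped that of the controls. These embryos had intact Mlkl, so the comparison changes Casp8 and Mlkl together. Of the enterocyte, stem cell, neutrophil, macrophage and erythroid markers 0 passed edgeR's test, with 0 at an unadjusted p under 0.05.

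Casp1 KO on top of D387A Cflar Mlkl asked how much of this depended on caspase-1. Compared directly, 44 of 46 members were lower in D387A Cflar Mlkl Casp1 than in D387A Cflar Mlkl and 0 were higher by edgeR, where 22.5% of all genes tested were lower and 24.5% higher. The median member change was -0.67 against 0.03 for all genes, and 44 members did not overlap between the groups (background 26.3%). E2f1 (-0.10 ± 0.09) and E2f8 (0.22 ± 0.11, adjusted p = 0.121) were the members that did not pass. Rrm2 was 21.1, 19.4 and 25.3 RPKM, far below the D387A Cflar Mlkl libraries and just above the controls (change -1.35 ± 0.11, adjusted p = 2.5e-08). Kif23 and Hmmr, both spindle genes, followed with -0.96 ± 0.10 and -0.96 ± 0.09. Foxm1 (-0.32 ± 0.09) and Cdk2 (-0.38 ± 0.07) had the smallest falls.

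Against the Mlkl controls, the members in D387A Cflar Mlkl Casp1 were still higher on balance. There, 27 rose and 1, E2f8, fell (background 10.2% and 11.2%), with a median change of 0.30. Of the members 37 lay wholly above the controls (background 18.8%). The largest rises were of the E cyclins, Ccne1 with 0.66 ± 0.15 (adjusted p = 0.00513) and Ccne2 with 0.63 ± 0.15 (adjusted p = 0.00716). Ccne1 was 11.8, 12.9 and 17.6 RPKM, E2f8 15.5, 16.5 and 11.3 and Cdk1 22.9, 20.8 and 23.8. Library 3 of this genotype had the highest Ccne1 and the lowest E2f8 of its group, and it was the library apart in Mlkl reads. Without it 20 members were called, and without control library 3 the count fell to 15, near the 16 found with only these 2 groups in the fit (11.6% of all genes). Enterocyte markers summed to 25431 to 36005 CPM here, with 8 of 9 higher than in D387A Cflar Mlkl, stem cell markers to 331 to 356 with 8 of 9 lower, neutrophil markers to 6.27 to 14.6 with 4 of 5 lower, and erythroid markers to 822 to 4703 against 487 to 1004 in D387A Cflar Mlkl, with 8 of 8 higher. Their part in the result was not tested. Both comparisons use the D387A Cflar Mlkl or control libraries again, so they are not independent of the first one.

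Further loss of Ifnar1 was compared with D387A Cflar Mlkl Casp1, to ask what type I interferon signalling did. Here 14 members were higher, 1 (E2f8) was lower and 31 did not pass (background 15.5% and 15.1%), with a median of 0.16. Of the nucleotide genes 3 of 4 passed, of the S phase entry genes 2 of 3, of the mitotic cyclins, CDK1 and FOXM1 3 of 5, and of the 11 licensing and helicase genes 1. Of the mitotic kinases and survivin 2 of 4 passed, of the checkpoint and anaphase-promoting complex genes 1 of 4, of the centromere genes 1 of 3, of the spindle genes 1 of 6, and 0 of the other 4 members that were not E2Fs (Pcna, Uhrf1, Mki67 and Top2a). Ccne1 was 22.7, 27.4 and 29.3 RPKM with Ifnar1 KO, above all D387A Cflar Mlkl Casp1 libraries, and rose by 0.91 ± 0.15 (adjusted p = 5.6e-04). Rrm2 was 33.0, 42.2 and 36.8 RPKM and rose by 0.77 ± 0.11 (adjusted p = 2.5e-04). Ccne2 rose by 0.57 ± 0.15, and Cenpa, the centromeric histone, by 0.48 ± 0.11. The helicase subunits Mcm2 (-0.02 ± 0.07) and Mcm6 (-0.06 ± 0.08) did not pass. Without library 2 of D387A Cflar Mlkl Casp1 the number of members called, in either direction, was 5 in place of 15, with only these 2 groups in the fit it was 2 (where 7.51% of all genes were called), and with raw library totals 7 (31.7%). The median fell to 0.09 without library 1 of the Ifnar1 KO version.

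Against the Mlkl controls, 37 members were higher in the Ifnar1 KO version and 1, E2f8, was lower (background 24.7% and 23.6%), with a median change of 0.47. The 8 that did not pass were Cdc6, Mcm2, Mcm6, Pcna, E2f1, Cenpe, Cenpf and Mki67. Mki67 was 31.4, 21.3 and 19.7 RPKM there, with library 1 above the controls and libraries 2 and 3 within their range (change 0.21 ± 0.14, adjusted p = 0.242). Ccne1 had the largest change, 1.57 ± 0.15 (adjusted p = 6.7e-07), which was followed by Ccne2 with 1.20 ± 0.15 and Rrm2 with 1.05 ± 0.11. E2f8 was 11.6, 11.7 and 11.1 RPKM, all below the controls (-0.81 ± 0.11, adjusted p = 1.8e-05). Compared with D387A Cflar Mlkl Casp1, 7 of 8 erythroid markers were lower (346 to 1098 CPM in sum) and 4 of 9 stem cell markers higher (379 to 460.2 CPM). Their part in the result was not tested.

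Loss of Fadd, by contrast, was compared with the same D387A Cflar Mlkl Casp1 intestines to ask whether the remaining change needed the adaptor. In that comparison 12 members were lower and 1 (E2f8) was higher (background 7.35% and 10.5%), with a median of -0.20 against -0.03 for all genes. Kif23 changed most, by -0.41 ± 0.10 (adjusted p = 0.0107), and the helicase subunits Mcm3, Mcm4 and Mcm5 by -0.29, -0.31 and -0.32. E2f8 was 17.4, 17.96 and 21.0 RPKM, above every library of the quadruple mutant (0.38 ± 0.11, adjusted p = 0.0239). The count of 13 fell to 7 without library 1 of D387A Cflar Mlkl Casp1, to 7 without library 2 of the Fadd KO version and to 8 without its library 3. With raw library totals 38 members were lower, but under that scaling 28.3% of all genes were lower and the median of all genes was -0.23. With only these 2 groups in the fit 1 was called (5.72% of all genes). Enterocyte markers (6 of 9) were higher with Fadd KO, 51985 to 57894 CPM in sum, while 6 of 8 erythroid markers were lower, 378 to 988 CPM. Their part was not tested.

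Against the Mlkl controls the Fadd KO version had the fewest members called of the Cflar-deficient intestines. The 4 that rose were Ccne1, Ccne2, Cdt1 and Cdk1, and the 1 that fell was E2f1 (background 9.97% and 8.4%, median 0.08). The share of members called higher was near the background. By sign alone 36 of the 46 members were higher. Of the 46, 13 lay wholly above the controls and 1 wholly below (18.6% and 19.4% of all genes). Ccne1 was 18.8, 16.6 and 14.0 RPKM, above all controls (0.89 ± 0.15, adjusted p = 5.3e-04). Ccne2 changed by 0.71 ± 0.15 (adjusted p = 0.00359), Cdt1 by 0.27 ± 0.08 (adjusted p = 0.0243) and Cdk1 by 0.25 ± 0.08 (adjusted p = 0.0389). E2f1 was 7.21, 7.38 and 7.91 RPKM, below the control range (-0.39 ± 0.09, adjusted p = 0.00521), and E2f8 did not pass (-0.10 ± 0.11, adjusted p = 0.567). Without control library 2 or 3, or library 1 or 2 of the Fadd KO version, 3 of the 46 members were called. Cdk1 lost its call in 8 of 15 alternatives and Cdt1 in 6 of 15, while Ccne1, Ccne2 and E2f1 kept theirs in all 15. The median ran from 0.04 without control library 3 to 0.13 without library 3 of the Fadd KO version.

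**Figure D3:**
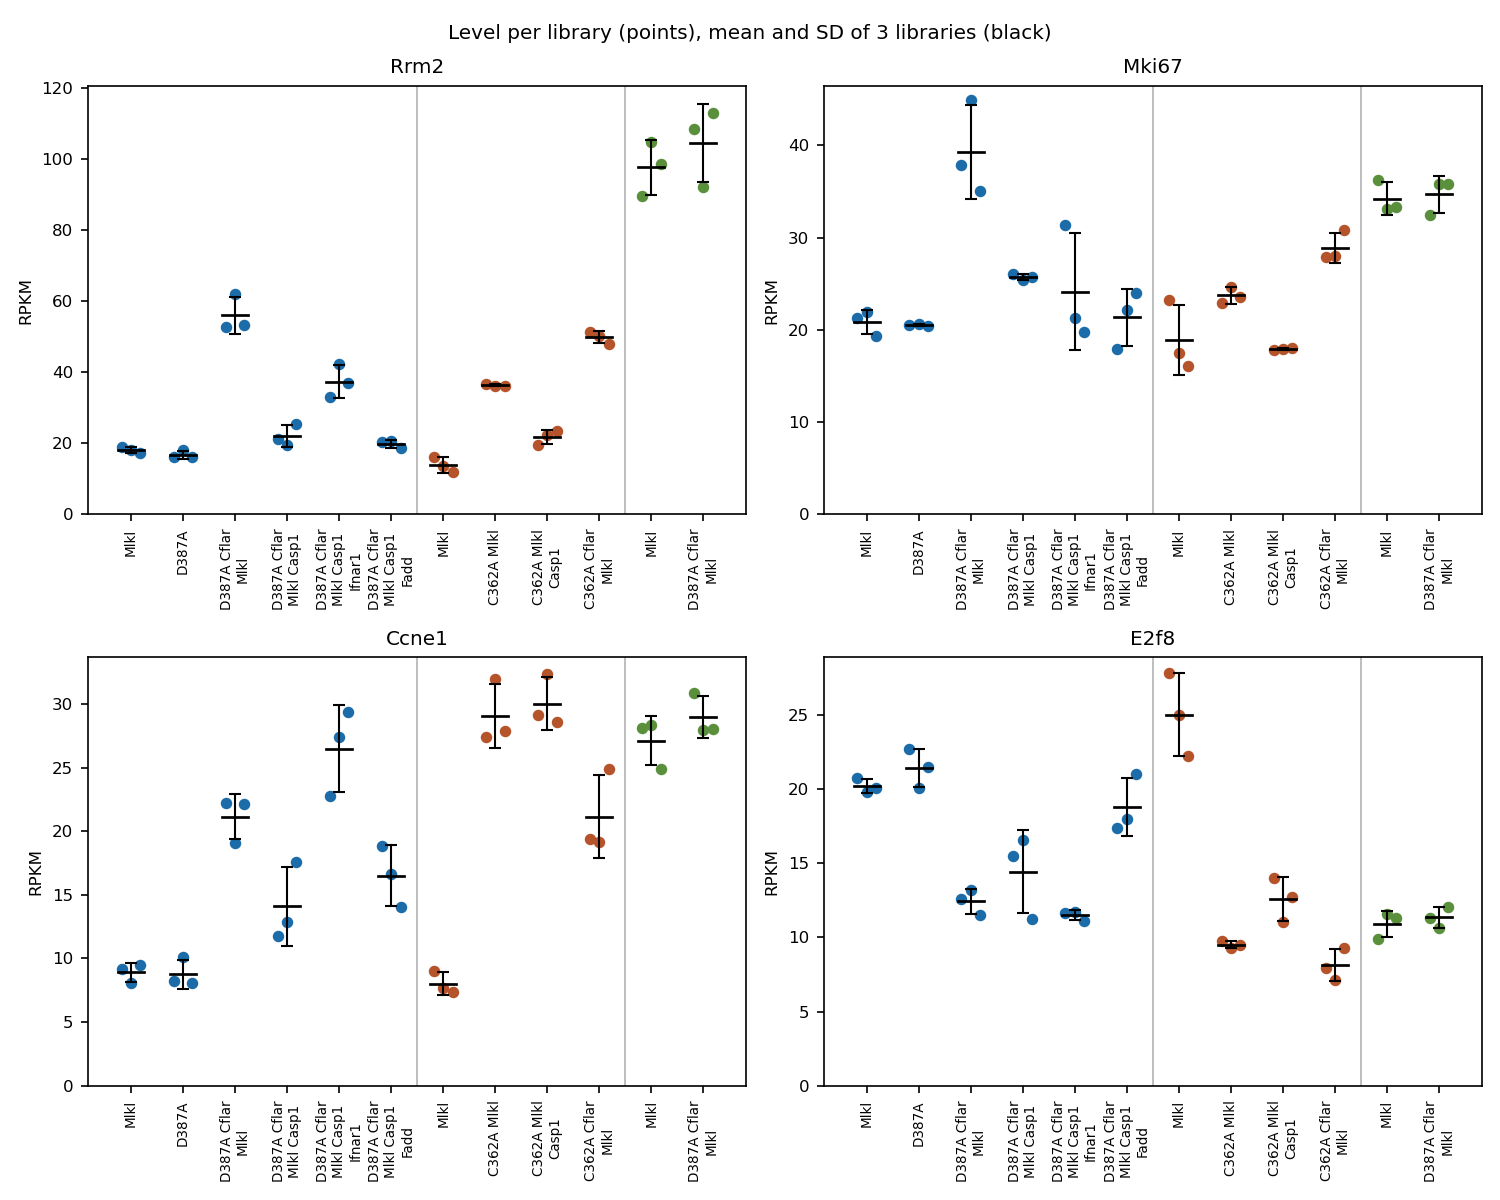
RPKM of Rrm2, Mki67, Ccne1 and E2f8 (y axes) in each library (points) by genotype (x axes), with the mean and SD of 3 libraries in black. Rrm2 is highest among D387A-set intestines in D387A Cflar Mlkl, Ccne1 in the Ifnar1 KO version, and E2f8 lies below the controls in both Cflar Mlkl mutants of the intestine.

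In the C362A set the first question was what catalytically dead caspase-8 did without MLKL. In C362A Mlkl intestines 35 members rose and 1, E2f8, fell against that set's Mlkl controls (background 22.4% and 19.7% of 19408 genes tested). The median change was 0.62 against 0.02. The 10 that did not pass were Mcm2, Mcm4, Mcm6, E2f1, Ccnb2, Bub1b, Ube2c, Cenpf, Nusap1 and Mki67. Ccne1 led, with 9.03, 7.69 and 7.32 RPKM in the controls and 27.4, 31.9 and 27.9 in C362A Mlkl. All mutant libraries were far above the controls (change 1.86 ± 0.13, adjusted p = 4.5e-08). Rrm2 was 16.2, 13.5 and 11.8 and 36.6, 36.2 and 36.1 RPKM (1.39 ± 0.12, adjusted p = 3.2e-07). Gins1, of the GINS complex that travels with the helicase, rose by 1.18 ± 0.13, Ccne2 by 1.08 ± 0.17 and Aurka by 0.99 ± 0.11. Mki67 was 23.3, 17.4 and 16.1 RPKM in the controls and 22.9, 24.7 and 23.6 in the mutant, with control library 1 inside the mutant range (0.33 ± 0.13, adjusted p = 0.0591). E2f8 fell from 27.8, 24.97 and 22.2 RPKM to 9.78, 9.30 and 9.47 (-1.39 ± 0.12, adjusted p = 5.5e-07), again with no overlap. Without control library 1, the highest of its group, 43 members were called, and without library 2 or 3 the counts were 33 and 32.

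Markers moved with genotype in this set too. In C362A Mlkl, 6 of 9 enterocyte markers fell (summed 41832 to 64129 CPM in the controls and 21576 to 26979 in the mutant). Of 9 stem cell markers 5 rose and 1 fell, with sums of 239 to 303 and 405 to 466 CPM. Neutrophil markers (4 of 5) rose (7.61 to 23.1 CPM in the controls, 281 to 347 in the mutant), 5 of 7 macrophage markers rose, and 5 of 8 erythroid markers fell. Their part in the result was not tested.

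C362A Cflar Mlkl had the largest median change of the set. In C362A Cflar Mlkl, 41 members rose and 1, E2f8, fell against the controls (background 27.9% and 24.9%), with a median of 0.97. Mcm2, Mcm6, E2f1 and Cenpf did not pass. Rrm2 was 51.2, 50.3 and 48.0 RPKM, the highest of the set (1.85 ± 0.12, adjusted p = 2.1e-08). E2f8 was 7.93, 7.15 and 9.30 RPKM, the lowest group mean of the set (-1.62 ± 0.13, adjusted p = 1.1e-07). Pcna changed by 1.32 ± 0.15, Tk1 by 1.29 ± 0.15 and Cenpa by 1.47 ± 0.18. Enterocyte markers (7 of 9) fell to 3876 to 11435 CPM in sum, 7 of 9 stem cell markers rose to 518 to 928, and 4 of 5 neutrophil markers rose to 143 to 244. Their part was not tested.

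Set directly against C362A Mlkl, 18 members were higher without Cflar and 1 was lower (background 6.95% and 12.4%, median 0.33). The mitotic cyclin Ccnb2 (0.79 ± 0.14), Pcna (0.75 ± 0.15), Tk1 (0.75 ± 0.14) and Nusap1 (0.67 ± 0.14), a spindle protein, changed most. Cdk1 was 25.5, 24.6 and 25.1 RPKM in C362A Mlkl and 41.5, 38.2 and 35.4 without Cflar, which did not overlap (0.61 ± 0.11, adjusted p = 0.00191). The member that fell was Ccne1, at 19.4, 19.2 and 24.9 RPKM without Cflar (-0.46 ± 0.12, adjusted p = 0.0183). That call was lost in 5 of 15 alternatives, among them scaling by raw library totals and a fit of only these 2 groups. Between these groups 8 of 9 enterocyte markers were lower (21576 to 26979 CPM in sum in C362A Mlkl, 3876 to 11435 without Cflar), and of 9 stem cell markers 3 were higher and 1 was lower (405 to 466 and 518 to 928 CPM). Of 5 neutrophil markers 0 were called higher and 0 lower by edgeR, with 2 at an unadjusted p under 0.05 (281 to 347 and 143 to 244 CPM). Their part was not tested.

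Casp1 loss was also followed in C362A Mlkl intestines. Compared directly, 11 members were lower in C362A Mlkl Casp1 and 1 (E2f8) was higher (background 15.5% and 17.9%), with a median of -0.29 against -0.02. The share of members that fell was not far from the background. Rrm2 was 19.4, 22.4 and 23.4 RPKM, below every C362A Mlkl library (-0.74 ± 0.12, adjusted p = 2.6e-04), and Kif23 changed by -0.69 ± 0.11 (adjusted p = 2.1e-04). Mki67 was 17.8, 17.9 and 17.99 RPKM (-0.41 ± 0.13, adjusted p = 0.0278). For Ccne1 and Cdk1 the libraries with and without Casp1 overlapped. Ccne1 was 29.1, 32.4 and 28.6 RPKM (0.05 ± 0.12, adjusted p = 0.797) and Cdk1 22.8, 25.1 and 26.5 RPKM (-0.01 ± 0.11, adjusted p = 0.942). The count of 12 fell to 6 without C362A Mlkl library 2 and to 7 without its library 3, was 28 with only these 2 groups in the fit, where 45% of all genes were called, and was 36, all lower, with raw library totals, where 34.9% of all genes were lower and their median was -0.29. Enterocyte markers (8 of 9) were higher with Casp1 KO, 64004 to 79655 CPM in sum, and 4 of 5 neutrophil markers were lower, 11.7 to 16.3 CPM. Their part was not tested.

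Against the Mlkl controls 18 members were higher in C362A Mlkl Casp1 and 1, E2f8, was lower (background 19% and 17.1%, median 0.28). Leaving out 1 library at a time moved that median between 0.17 and 0.44, the lowest without control library 3 and the highest without control library 1. Ccne1 (1.90 ± 0.13, adjusted p = 7.2e-08), Gins2 (0.99 ± 0.16) and Gins1 (0.94 ± 0.13) led, and Gins2 is subject to the overlap named above. E2f8 was 14.0, 11.03 and 12.7 RPKM (-0.99 ± 0.12, adjusted p = 3.8e-05).

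Whether Casp1 loss acted alike in the 2 backgrounds was tested as an interaction over both sets. The change on Casp1 loss was more negative in D387A Cflar Mlkl than in C362A Mlkl for 18 members and less negative for 0 (background 6.03% and 10.9%). The median difference of the log2 fold changes was -0.37 against 0.07 for all genes. Tk1 had a difference of -0.74 ± 0.19 (adjusted p = 0.00946). Its levels were 37.7, 49.5 and 41.9 RPKM in D387A Cflar Mlkl and 26.7, 26.7 and 29.9 with Casp1 KO, against 28.8, 26.5 and 24.7 in C362A Mlkl and 25.8, 29.1 and 32.9 with Casp1 KO. The D387A groups were apart and the C362A groups overlapped. Cdk1 differed by -0.66 ± 0.12 (adjusted p = 9.8e-04) and Aurka by -0.66 ± 0.14 (adjusted p = 0.00210). Ccne1 differed by -0.61 ± 0.20 (adjusted p = 0.0334) and Rrm2 by -0.59 ± 0.15 (adjusted p = 0.00906). Foxm1 (0.19 ± 0.13), Ccne2 (0.04 ± 0.23) and Cdk2 (-0.00 ± 0.12) were among the 28 that did not pass. The backgrounds also differ in Cflar, and the sets in their controls and in the share of reads on genes. The count fell to 8 without D387A Cflar Mlkl library 2, to 11 or 9 without library 1 or 2 of D387A Cflar Mlkl Casp1, and to 11 without C362A Mlkl Casp1 library 2. It was 5 with raw library totals (21.2% of all genes) and 10 with no filter on low counts (7.76%). Ccne1 lost its call in 9 of 18 alternatives, Ccna2 in 13 of 18 and Kif11 in 18 of 18.

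The rise in D387A Cflar Mlkl and that in C362A Cflar Mlkl, each against its own controls, differed for 1 member by edgeR (0.127% of all genes differed). That member was E2f8, which fell less in the D387A background (-0.70 ± 0.11) than in the C362A background (-1.62 ± 0.13), a difference of 0.91 ± 0.16 (adjusted p = 0.0180). Of the 46 members 14 differed at an unadjusted p under 0.05, as did 20.6% of all genes. The count was 0 without any one of control libraries 1 to 3 of the D387A set, D387A Cflar Mlkl library 1 or 2, control library 1 of the C362A set, or C362A Cflar Mlkl library 2. It was 8 without control library 3 of the C362A set (7.66% of all genes) and 12 without C362A Cflar Mlkl library 3 (14.9%). The interval of the difference for Rrm2 ran from -0.52 to 0.07.

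In MEFs the same genotype contrast, D387A Cflar Mlkl against Mlkl KO, called 0 members by edgeR, where 0.11% of 15465 genes tested were called. The count at an unadjusted p under 0.05 was 8 (background 6.47%), limma-voom called 0 and DESeq2 called 1 (Cdt1). With a replicate block 0.336% of all genes were called. By sign alone 44 of the 46 members were higher in the mutant. Of the 46, 10 lay wholly above the controls and 0 wholly below (6.79% and 5.68% of all genes). The median member change was 0.09 against -0.00 for all genes. MEFs carried high levels of these transcripts in both genotypes. The summed level of the members was 5309 CPM in Mlkl KO MEFs and 5591 in D387A Cflar Mlkl MEFs, against 2443 in control intestines and 4695 in D387A Cflar Mlkl intestines, with the sets scaled separately. Rrm2 was 89.6, 105 and 98.6 RPKM in Mlkl KO MEFs and 109, 92.2 and 113 in the mutant, overlapping (0.10 ± 0.09, adjusted p = 0.913). Mki67 was 36.3, 33.1 and 33.3 and 32.4, 35.8 and 35.8 RPKM, and E2f8 9.89, 11.6 and 11.3 and 11.3, 10.6 and 12.1, also overlapping. Cdt1 had the largest change, 0.48 ± 0.10 (adjusted p = 0.217), with the mutant libraries all above the controls. The intestinal markers of enterocytes were near 0 in MEFs, 40.3 to 63.5 CPM in sum.

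The change of D387A Cflar Mlkl against Mlkl differed between intestine and MEFs for 45 of the 46 members by the interaction test, 44 with a larger change in intestine and 1, E2f8, with a more negative one (background 21.5% and 16.9%). The median difference was 0.89 against 0.04 for all genes. Rrm2 differed by 1.56 ± 0.15 (adjusted p = 8.0e-08) and E2f8 by -0.73 ± 0.15 (adjusted p = 5.6e-04). E2f1 (-0.00 ± 0.12, adjusted p = 1.000) was the member that did not pass. Intestine is a mixture of cell types and MEFs are a culture, so tissue, cell type and growth state cannot be told apart in this comparison.

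**Figure D4:**
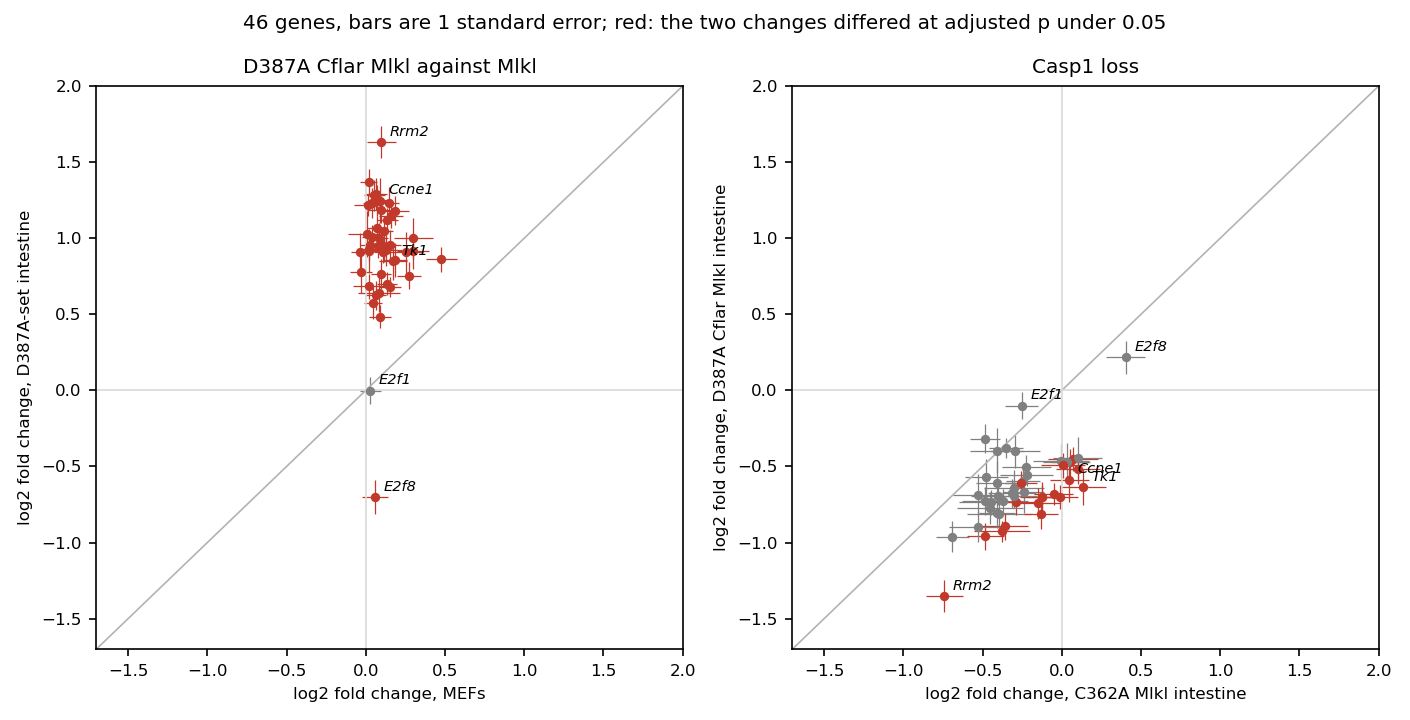
The log2 fold change of each member with 1 SE in a pair of contrasts, at left D387A Cflar Mlkl against Mlkl in MEFs (x) and intestine (y), at right Casp1 loss in C362A Mlkl (x) and in D387A Cflar Mlkl (y). Red marks members whose changes differed, 45 at left and 18 at right, and the grey diagonal is equality.

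The other genes of the pathway were taken from lists of 41 replication genes, 50 mitosis genes, 20 genes of G1 control (D cyclins, CDK4 and CDK6, the RB family, other E2Fs and the MuvB complex) and 15 CDK inhibitors and p53 arrest genes. In D387A Cflar Mlkl intestines 36 of 41 replication genes and 47 of 50 mitosis genes rose against the controls (background 29.9% of all genes). Mcm10, which helps start the helicase, rose by 1.42 ± 0.13 (adjusted p = 3.8e-08) and Cep55, a protein of the final abscission, by 1.75 ± 0.10 (adjusted p = 1.1e-10). Of the G1 control genes 14 rose and 4 fell (background 29.9% and 29.5%), with Mybl2, the partner of MuvB in proliferating cells, at 1.73 ± 0.12, and Lin37, a MuvB subunit, at -0.73 ± 0.12. Of the 15 CDK inhibitors and arrest genes tested 5 rose, a share near that of all genes, and 7 fell (same background).

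Among the inhibitors, Cdkn1c, encoding p57, was 865, 746 and 877 RPKM in the controls and 138, 108 and 100.1 in D387A Cflar Mlkl. Every mutant library was far below the controls (-2.85 ± 0.19, adjusted p = 1.7e-09). Cdkn1a, encoding p21, was 40.9, 39.6 and 39.5 RPKM in the controls and 64.0, 63.8 and 52.8 in the mutant (0.59 ± 0.16, adjusted p = 0.00373). Cdkn1a was 1.22 higher in the Ifnar1 KO version (adjusted p = 1.1e-05) and 0.95 higher in C362A Mlkl (adjusted p = 4.6e-05), and on Casp1 loss in the D387A background it changed by -0.07 ± 0.16 (adjusted p = 0.727). Cdkn1c was 1.84 higher after Casp1 loss there (adjusted p = 5.6e-07).

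The same lists were counted in the other comparisons, with the share of all genes called in that direction as background. On Casp1 loss 32 of 41 replication and 46 of 50 mitosis genes were lower in the D387A background (background 22.5%) and 8 and 14 in the C362A background (15.5%). The exceptions that were higher were 1 mitosis gene in the D387A background, and 1 replication gene and 1 mitosis gene in the C362A background. In C362A Mlkl 26 replication and 43 mitosis genes rose (background 22.4%), and in C362A Cflar Mlkl 35 and 46 (27.9%). Ect2, a regulator of cytokinesis, led the mitosis genes of C362A Cflar Mlkl with 1.79 ± 0.18, and Dut, which keeps uracil out of DNA, the replication genes with 1.51 ± 0.13. In the Fadd KO version 7 and 6 rose against the controls (background 9.97%), led by Pttg1 (securin) with 1.04 ± 0.14, and 1 mitosis gene, the phosphatase Cdc25b, fell (-0.28 ± 0.08). Against the controls, 16 replication and 25 mitosis genes rose in D387A Cflar Mlkl Casp1 (background 10.2%), 26 and 43 in the Ifnar1 KO version (24.7%), and 21 and 24 in C362A Mlkl Casp1 (19%), where Dna2 (-0.40 ± 0.12) and Cdc25b (-0.31 ± 0.09) fell. On Ifnar1 loss 11 and 14 were higher (background 15.5%), and Timeless (-0.23 ± 0.09) and Hjurp (-0.54 ± 0.13) were lower. On Fadd loss 7 and 10 were lower (background 7.35%), and Rfc3 (0.36 ± 0.08) and Pttg1 (1.00 ± 0.14, adjusted p = 1.6e-04) were higher. On Cflar loss in C362A Mlkl 9 and 15 were higher and none of either list was lower by edgeR (background 6.95% and 12.4%). In MEFs edgeR called 0 and 0 higher and 0 and 0 lower, with 4 and 4 at an unadjusted p under 0.05.

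The order of the groups differed between E2f8, Rrm2 and Ccne1. By group mean in the D387A set, E2f8 was 21.4 RPKM in D387A, 20.2 in the controls, 18.8 in the Fadd KO version, 14.4 in D387A Cflar Mlkl Casp1, 12.4 in D387A Cflar Mlkl and 11.5 in the Ifnar1 KO version. Neighbours in that order overlapped, except the Fadd KO version and D387A Cflar Mlkl Casp1, which were apart. Rrm2 went the other way, from 16.7 RPKM in D387A and 18.1 in the controls through 19.8 with Fadd KO, 21.9 in D387A Cflar Mlkl Casp1 and 37.3 with Ifnar1 KO, to 56.1 in D387A Cflar Mlkl. The last 3 of these were apart from each other, and earlier neighbours overlapped. Ccne1 had another order, with 26.5 RPKM in the Ifnar1 KO version above 21.1 in D387A Cflar Mlkl, 16.5 with Fadd KO and 14.1 in D387A Cflar Mlkl Casp1. Only the last pair of these 4 overlapped. E2f8 lost its call in 6 of 15 alternatives for Ifnar1 loss, in 5 of 15 for Casp1 loss in C362A Mlkl (highest adjusted p 0.398, with raw library totals), in 4 of 15 for Fadd loss, in 1 of 15 for D387A Cflar Mlkl Casp1 against Mlkl, and in 7 of 18 for the difference between the Cflar Mlkl genotypes.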

How the data were processed

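Gene counts, gene widths and RPKM values were deposited by the authors, 1 file per library with replicates not pooled. The deposited counts are whole reads on the exons of each gene. The deposited RPKM were used here only to derive library totals, and levels were recomputed from counts and widths. Per the methods of the study, reads were aligned to GRCm38 (mm10) with GSNAP and uniquely mapped reads were kept. The counter, its annotation and its strand setting are not given in the sources used here. The labels and the methods name different library kits and sequencers.

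Counts were tested with edgeR 4.0.16 (R 4.3.3) by quasi-likelihood, after TMM scaling and a filter on low counts (minimum count 10, minimum total 15), with 1 mean per genotype. The D387A set (18360 genes), the C362A set (19408) and MEFs (15465) were fitted apart, and the 3 interaction tests used joint fits. A call needed a Benjamini-Hochberg adjusted p under 0.05 over all genes tested, and the stricter rule added a log2 fold change above 1 or below -1. The prior count was 0.125. Members and lists were chosen with earlier results of these data known. By rule, genes named were the 46 members, Cdkn1a, the targeted genes, and from each list of other cell cycle genes the called gene with the largest rise and that with the largest fall in a comparison. Alternatives tried were DESeq2 1.42.0, voom from limma 3.58.1, other scalings and filters, fits of 2 groups, a replicate block and each library left out. The code was tested on simulated data. Same-numbered libraries deviated together (every correlation over 0.1) only for D387A against Mlkl and for MEFs, where the block changed no member's call. Over all genes in MEFs, 34 were higher and 18 lower with the block, against 15 and 2 without it. No 2 libraries of a group agreed within sampling noise. Promoters came from RefSeq (GRCm38.p6), gene positions from GENCODE on GRCm38. With 3 libraries against 3, an exact permutation test cannot go below 0.1, so none was used.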

Additional observations from a re-analysis of the deposited data

Results flagged for a closer look

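The change of D387A Cflar Mlkl against Mlkl differed between intestine and MEFs for 45 of the 46 members by edgeR's interaction test. For Rrm2 the difference of the log2 fold changes was 1.56, and for E2f8 it was -0.73, with the intestinal change the more positive and the more negative, respectively.

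The change on Casp1 loss differed between D387A Cflar Mlkl and C362A Mlkl intestines for 18 members. The differences were -0.74 for Tk1, -0.66 for Cdk1 and -0.66 for Aurka, so each change was the more negative in the D387A background. Between 8 and 16 members were called when 1 library was left out.

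The changes in D387A Cflar Mlkl and C362A Cflar Mlkl, each against its own controls, differed for 1 member. E2f8 differed by 0.91, with the larger fall in the C362A background, and this call was lost when any 1 of several libraries was left out. No explanation was tested for these 3 differences.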

How the results depend on the processing

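No called result changed direction under any alternative run. With scaling by raw library totals the median member change was -0.070 for D387A, 1.16 for D387A Cflar Mlkl and 0.42 for D387A Cflar Mlkl Casp1 against Mlkl, -0.76, 0.071 and -0.39 for Casp1, Ifnar1 and Fadd loss in the D387A set, 1.24 for C362A Cflar Mlkl against Mlkl, and -0.57 and 0.46 for Casp1 and Cflar loss in the C362A set. That scaling moved the median of all genes by between -0.295 and 0.305. Member counts under it were 3 for the Fadd KO version against Mlkl, 7 for Ifnar1 loss, 38 for Fadd loss (28.3% of all genes were lower), 36 for Casp1 loss in the C362A set (34.9% lower) and 5 for the difference between the Casp1 effects. With no filter on low counts the counts were 7 for Fadd loss, 1 in MEFs and 10 for the difference between the Casp1 effects, and DESeq2 called 1 in MEFs. With only the 2 groups compared they were 16 for D387A Cflar Mlkl Casp1 against Mlkl, 2 for Ifnar1 loss, 1 for Fadd loss and 28 for Casp1 loss in the C362A set.

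Leaving out 1 library at a time gave 15 to 27 members called for D387A Cflar Mlkl Casp1 against Mlkl, 3 to 5 for the Fadd KO version, 35 to 40 for the Ifnar1 KO version, 5 to 18 for Ifnar1 loss (median change 0.089 to 0.19), 7 to 11 for Fadd loss, 6 to 11 for Casp1 loss in the C362A set, 42 to 44 in the D387A set, 32 to 43 for C362A Mlkl, 41 to 43 for C362A Cflar Mlkl, 15 to 25 for C362A Mlkl Casp1 (median change 0.17 to 0.44), 13 to 18 for Cflar loss, 8 to 16 for the difference between the Casp1 effects, 0 to 12 for the difference between the Cflar Mlkl effects, and 45 in every case for D387A Cflar Mlkl against Mlkl. E2f8 lost its call for Fadd loss and for Casp1 loss in the C362A set under raw library totals, and for D387A Cflar Mlkl Casp1 against Mlkl, Ifnar1 loss and Fadd loss with only 2 groups in the fit. With libraries left out included, it lost the call in 6 of 15 alternatives for Ifnar1 loss, 4 of 15 for Fadd loss and 5 of 15 for Casp1 loss in the C362A set. It kept its call under every alternative run for D387A Cflar Mlkl, C362A Mlkl, C362A Cflar Mlkl, C362A Mlkl Casp1 and the Ifnar1 KO version against Mlkl. With the replicate block the counts of members called stayed within 1.5 times the reported ones, at 45 for D387A Cflar Mlkl against Mlkl and 44 for Casp1 loss in the D387A set, and apart from D387A against Mlkl and MEFs the numbers did not pair the libraries. The causes of these differences were not tested. The lowest count of a member in any library was 85 reads (Ccnb1).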
